A study of Homo sapiens with 12 samples.

Results

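The enzymes that carry lanosterol to cholesterol were followed in 2 human cancer cell lines treated with inhibitors of the co-activators CBP and p300. The members were chosen by name as the enzymes of these steps, by a rule that set no threshold on their signals, although the direction of HSD17B7 was known. They were CYP51A1, TM7SF2, SC4MOL (now MSMO1), NSDHL, HSD17B7, EBP, SC5DL (now SC5D) and DHCR7. All 8 had a row among the 34687 rows of the array table, SC4MOL and SC5DL under these older names.

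The arrays were Illumina HumanHT-12 BeadChips, on which a gene's signal is the brightness of labelled RNA bound to its probes. HCT116 cells come from a colon carcinoma and PANC1 cells from a pancreatic adenocarcinoma, and each is 1 established line grown in medium with serum. Each line received the solvent control, DMSO at 0.05%, or a drug at 10 uM, ICG-001 or C646, and RNA was collected after 12 or 96 h, which gave 12 groups. ICG-001 blocks the binding of CBP to β-catenin, whereas C646 competes with acetyl-coA in the acetyltransferases CBP and p300. No genetic change was made to either line. Cells for the 12 h groups were treated at a higher density than cells for the 96 h groups, which were passaged during the treatment and received fresh medium and drug every day.

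Each group had 1 column of values, which averaged 2 arrays, except that PANC1 with ICG-001 at 12 h averaged 3. Single arrays were not analysed here, so the differences below have no replicate check, no error and no test. A member was counted as lower or higher when its signals differed at least 1.5-fold and at least 1 of them exceeded the detection limit of its column, which lay at 143 to 144 in HCT116 cells and at 135 to 138 in PANC1 cells. All 8 members were above the limit in all 12 columns, the dimmest by 2.40-fold. Background was left in the signal, so ratios of dimmer genes are understated. The value distributions of the lines differed by a mean of 0.063 to 0.066 in log2 signal, against 0.0037 to 0.0093 within a line, and signals were therefore compared within a line. Of the labelled cell types' markers, EPCAM, CDH1, KRT8, KRT18 and CDX2 were above the limit in all 6 HCT116 columns and VIL1 in 0 of 6. EPCAM, CDH1 and CDX2 were also above it in all 6 PANC1 columns, as were the PANC1 markers KRT7, KRT8, KRT18, KRT19 and VIM. KRT19 and VIM were above it in all 6 HCT116 columns too, and KRT7 in 4 of 6. In RNA from whole cultures, fewer cells expressing a gene and less RNA per cell cannot be told apart.

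Cholesterol is made from acetyl-coA through mevalonate, squalene and lanosterol. The late enzymes sit in the membrane of the endoplasmic reticulum, where they remove 3 methyl groups from lanosterol, move a double bond within the ring system and reduce others. When membrane sterol is low, SCAP and SREBP2 leave INSIG, and SREBP2 is cut free by proteases in the Golgi and raises transcription of the pathway. Other intermediates of these steps include meiosis-activating sterols and 7-dehydrocholesterol, the precursor of vitamin D.

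With ICG-001, part of the late pathway was lower, in HCT116 at both times and in PANC1 at 96 h. In HCT116, 3 of 8 members were lower after 12 h (SC4MOL, EBP and DHCR7) and 3 of 8 after 96 h (CYP51A1, SC4MOL and DHCR7). In PANC1, 0 of 8 were lower after 12 h and 5 of 8 after 96 h (CYP51A1, SC4MOL, EBP, SC5DL and DHCR7). Of all rows compared, 4.15% (12 h) and 5.12% (96 h) were lower in HCT116, and 0.335% (12 h) and 3.55% (96 h) in PANC1. The median log2 change of the members in HCT116 was -0.36 at 12 h and -0.32 at 96 h, and in PANC1 -0.10 at 12 h and -0.82 at 96 h. The median of all rows lay near 0 in each comparison. HSD17B7 was the only member that was higher, in PANC1 at 12 h. Of all rows, 4.81% (12 h) and 5.14% (96 h) were higher in HCT116, and 2.17% (12 h) and 3.83% (96 h) in PANC1. These counts move with the fold required. At 2-fold, 1 member was lower in HCT116 at 12 h and 2 in PANC1 at 96 h. At 1.2-fold, 5 were lower in HCT116 at 96 h and 2 in PANC1 at 12 h. Without HSD17B7, the PANC1 12 h median was -0.19. The 96 h comparisons rest on a single DMSO 96 h column per line. For PANC1 at 96 h of ICG-001, the study's own supplementary table gives smaller decreases for SC4MOL, NSDHL, EBP and DHCR7. EBP falls short of 1.5-fold there. With C646 at 96 h, that table also places each of these genes higher against its control than the columns used here do. Both drugs are set here against the same PANC1 DMSO 96 h column, and every PANC1 96 h comparison with DMSO rests on it. Whether this column differs from the control used in the study was not tested. Against DMSO 12 h, an alternative chosen after seeing the data, the ICG-001 96 h column had 3 lower members in HCT116 and 4 in PANC1. CYP51A1 was then not among them in either line, at -0.40 in HCT116 and -0.56 in PANC1. Epithelial markers moved with the PANC1 96 h result. After 96 h of ICG-001, 2 of 5 PANC1 markers were lower, KRT8 by -1.06 and KRT19 by -1.17, the median of the 5 was -0.53, and EPCAM changed by -0.78. In HCT116, KRT7 stood at 389 and 336 with ICG-001 at 12 and 96 h, against 142 and 140.0 in DMSO, under the limit. The part of these marker changes in the result was not tested.

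**Figure D1:**
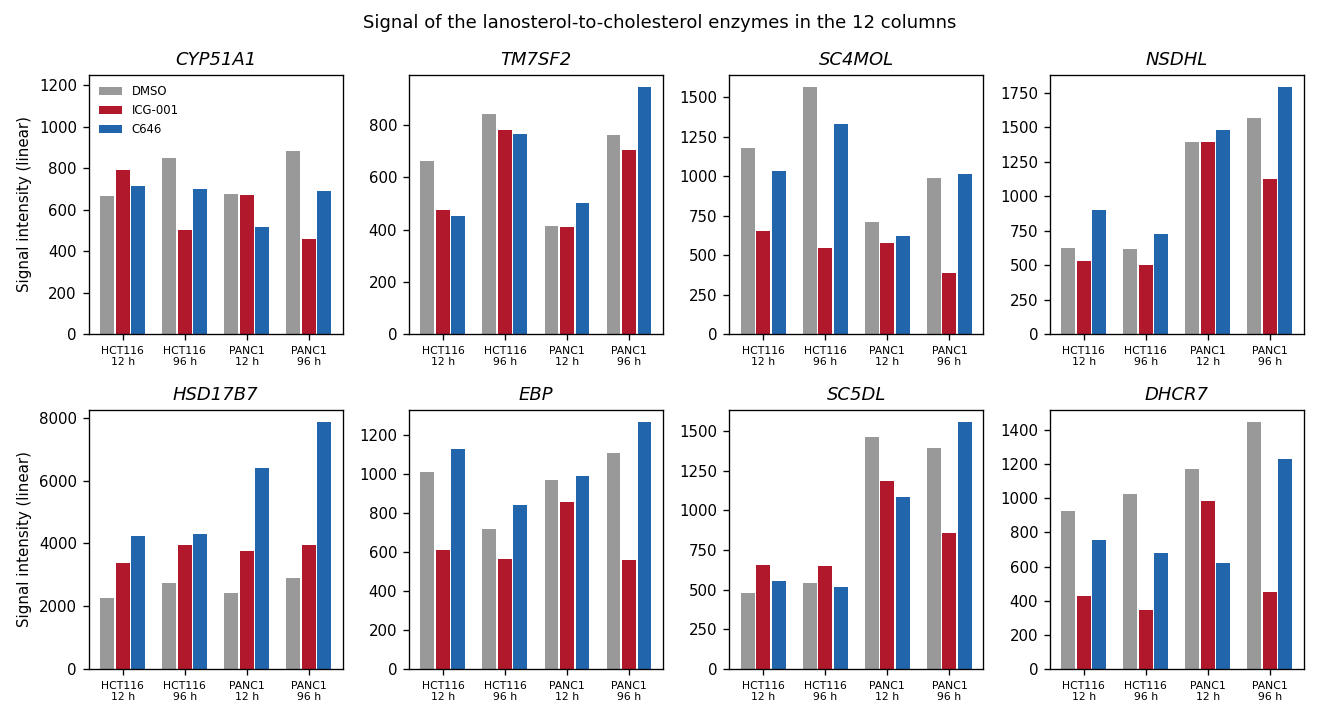
Signal intensity on a linear scale of each of the 8 enzymes, with 1 bar for each treatment, grouped by cell line and time point; each bar is a single mean of replicate arrays and has no error. The ICG-001 96 h bars of SC4MOL and DHCR7 are the lowest of their line, at 544 and 344 in HCT116 and 386 and 452 in PANC1, while the C646 bars of HSD17B7 are the highest of their line.

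CYP51A1 is the cytochrome P450 that removes the 14α-methyl group of lanosterol and opens the late pathway. In HCT116 its signal was 666 and 851 in DMSO at 12 and 96 h, 791 and 504 in ICG-001, and 715 and 701 in C646. In PANC1 it was 674 and 882 in DMSO, 670.0 and 459 in ICG-001, and 516 and 691 in C646. In both lines the DMSO 96 h column was the highest and the ICG-001 96 h column the lowest. In HCT116 the log2 change with ICG-001 was 0.25 at 12 h and -0.76 at 96 h, and in PANC1 -0.01 at 12 h and -0.94 at 96 h.

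TM7SF2 reduces the double bond that CYP51A1 leaves in the sterol ring, a step it shares with the lamin B receptor, LBR. Its HCT116 signal ranged from 451 in C646 at 12 h to 842 in DMSO at 96 h, and in PANC1 from 409 in ICG-001 at 12 h to 945 in C646 at 96 h. TM7SF2 was lower or higher in 0 of the 8 comparisons with DMSO. Its columns were ordered by time instead. In PANC1 the 3 columns of 96 h (703 to 945) lay above the 3 columns of 12 h (409 to 501), and in HCT116 766 to 842 lay above 451 to 663.

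SC4MOL is the oxidase that begins the removal of the methyl pair at carbon C-4. In HCT116 its signal was 1180.1 and 1565.1 in DMSO at 12 and 96 h, 652 and 544 in ICG-001, and 1035 and 1332 in C646. In PANC1 it was 711 and 987 in DMSO, 574 and 386 in ICG-001, and 623 and 1015 in C646. Both ICG-001 columns lay below all 4 other columns in each line. The log2 change with ICG-001 in HCT116 was -0.86 at 12 h and -1.52 at 96 h, and in PANC1 -0.31 at 12 h and -1.35 at 96 h. With C646 it lay between -0.23 and 0.04.

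NSDHL is the dehydrogenase and decarboxylase of C-4 demethylation, and its gene lies on the X chromosome. Its signal ranged from 504 to 899 in HCT116 and from 1121.1 to 1789.8 in PANC1, with ICG-001 96 h the lowest column in both lines. In HCT116 its log2 change was -0.23 (12 h) and -0.29 (96 h) with ICG-001, and 0.54 (12 h) and 0.24 (96 h) with C646. The PANC1 changes were 0.00 (12 h) and -0.48 (96 h) with ICG-001, and 0.08 (12 h) and 0.19 (96 h) with C646. None of these reached 1.5-fold.

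HSD17B7, the 3-keto reductase that completes each round of C-4 demethylation, lay above its DMSO column in 8 of 8 comparisons, by at least 1.5-fold in 5. In HCT116 its signal was 2249 and 2749 in DMSO at 12 and 96 h, 3359 and 3954 in ICG-001, and 4229 and 4291 in C646. In PANC1 it was 2413 and 2888 in DMSO, 3771 and 3933 in ICG-001, and 6404 and 7871 in C646. The order of the 6 columns was identical in the lines, with DMSO lowest, ICG-001 between and C646 highest. The columns spanned 1.91-fold in HCT116 and 3.26-fold in PANC1. The pseudogene HSD17B7P2 has a row of its own, with signals of 139 to 197. HSD17B7 is also listed in RefSeq as an older name of this pseudogene, and which transcript the probes of the HSD17B7 row read was not tested.

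EBP is the isomerase that moves the double bond from position C-8 to C-7. Its HCT116 signal was 1011 and 717 in DMSO at 12 and 96 h, 610 and 563 in ICG-001, and 1128 and 841 in C646. In PANC1 it was 972 and 1108 in DMSO, 855 and 559 in ICG-001, and 989 and 1268 in C646. Both ICG-001 columns were the lowest of their line. The change in HCT116 at 96 h was -0.35, from a DMSO 96 h column that itself lay 0.50 below the 12 h column on the log2 scale.

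SC5DL is the desaturase that makes 7-dehydrocholesterol from lathosterol, and with ICG-001 it lay on opposite sides of DMSO in the lines. Its HCT116 signal was 476 and 542 in DMSO at 12 and 96 h, 653.9 and 649.7 in ICG-001, and 552 and 519 in C646. Its PANC1 signal was 1465 and 1396 in DMSO, 1182 and 856 in ICG-001, and 1082 and 1558 in C646. The ICG-001 columns were the 2 highest in HCT116, at log2 changes of 0.46 and 0.26, neither of them 1.5-fold. In PANC1 the ICG-001 96 h column was the lowest, at -0.71.

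DHCR7 reduces 7-dehydrocholesterol to cholesterol and ends the pathway. Its HCT116 signal was 927 and 1027 in DMSO at 12 and 96 h, 426 and 344 in ICG-001, and 754 and 677 in C646. In PANC1 it was 1169.9 and 1448 in DMSO, 986 and 452 in ICG-001, and 620.1 and 1232 in C646. It was the only member below its DMSO column in 8 of 8 comparisons and was at least 1.5-fold lower in 5. The PANC1 C646 96 h difference, -0.23, depends on its control column and was 0.08 against DMSO 12 h. The study's own supplementary tables give the opposite direction for it. After 96 h of ICG-001 its signal was lower by 2.98-fold in HCT116 and by 3.21-fold in PANC1. The study's own supplementary table gives a smaller decrease in PANC1. Of the rows compared, 99.83% in HCT116 and 99.98% in PANC1 had a log2 change above that of DHCR7.

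**Figure D2:**
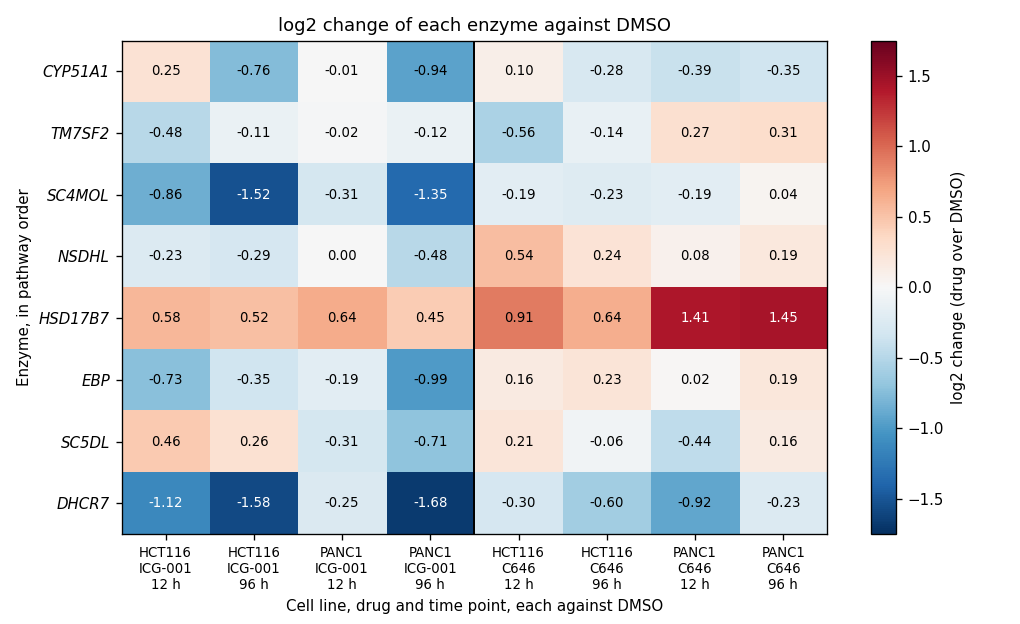
Heat map of the log2 change of each enzyme (rows, in pathway order) in each comparison of a drug with DMSO of the same line and time (columns); blue is lower and red higher with the drug. The deepest blue cells are DHCR7 and SC4MOL with ICG-001 at 96 h (-1.68 to -1.35), and the HSD17B7 row is red throughout (0.45 to 1.45).

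The start regions of these genes were read to show what the members share in sequence. RefSeq (GRCh38.p14) gave a start region for all 8, and the 250 bases before the start were searched on both strands. A CCAAT box (letters CCAAT), the element bound by NF-Y, a common partner of SREBP, was found in 7 of 8 members, CYP51A1 being the exception, and in 37.0% of 27305 genes. The letters TCACNCCAC, the core of the sterol regulatory element, were found in 0 of 8 members and in 1.09% of genes. The GC box GGGCGG was found in 7 of 8 members, NSDHL being the exception, and in 46.2% of genes. The E-box CACGTG was found in SC5DL and in 7.73% of genes. None of the 4 motifs contains another. A match is a description of the letters and not of binding. The search allowed no mismatch, so the absence of a match concerns only these exact letters within this window.

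The 100 bases before the start are printed for SC4MOL and EBP, whose ICG-001 columns were the lowest of their line, for HSD17B7, which was higher, and for TM7SF2, which was neither, with the CCAAT box on either strand in capitals. The windows are chr4:165327569-165327668 (plus strand), chrX:48521708-48521807 (plus), chr1:162790602-162790701 (plus) and chr11:65111772-65111871 (plus). For DHCR7 a stretch of 30 bases around its nearest box is given, chr11:71448424-71448453 (minus).
SC4MOL: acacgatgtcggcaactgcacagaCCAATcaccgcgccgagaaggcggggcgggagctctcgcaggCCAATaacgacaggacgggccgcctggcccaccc
EBP: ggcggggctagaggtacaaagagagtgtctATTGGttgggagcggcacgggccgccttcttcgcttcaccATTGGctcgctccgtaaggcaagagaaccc
HSD17B7: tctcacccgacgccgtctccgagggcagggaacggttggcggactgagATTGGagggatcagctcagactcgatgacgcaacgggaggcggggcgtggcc
TM7SF2: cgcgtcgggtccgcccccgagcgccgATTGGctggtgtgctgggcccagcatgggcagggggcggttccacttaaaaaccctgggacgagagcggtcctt
DHCR7: ggtccgcctccgATTGGcaggcaatcgctg
SC4MOL and EBP each held 2 boxes in this window and HSD17B7 and TM7SF2 held 1 each. DHCR7 held 2 in its own 100 bases, of which the printed stretch shows 1. SC5DL, not printed, held 1, and none at a further listed start. NSDHL, whose ICG-001 columns were also the lowest of their line, is not printed and held 1. CYP51A1, lower after 96 h of ICG-001, held none. DHCR7 has a further listed start upstream whose window held none.

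With C646, HSD17B7 was the member that was higher and DHCR7 the member that was lower. HSD17B7 was higher in 4 of 4 comparisons of C646 with DMSO, on the log2 scale by 0.91 (12 h) and 0.64 (96 h) in HCT116 and by 1.41 (12 h) and 1.45 (96 h) in PANC1. In PANC1 these were ratios of 2.65 and 2.73, and 0.314% and 0.304% of the rows compared rose by more. DHCR7 was lower in HCT116 at 96 h (-0.60, and -0.45 against DMSO 12 h) and in PANC1 at 12 h (-0.92). In the columns used here, the other 6 members were within 1.5-fold of DMSO in all 4 comparisons. Thus 0, 1, 1 and 0 of 8 members were lower in HCT116 at 12 and 96 h and PANC1 at 12 and 96 h, against 1.52%, 1.23%, 2.69% and 1.19% of all rows. In each of them 1 of 8 was higher, against 2.58%, 1.91%, 3.99% and 2.81%. For PANC1 at 96 h the study's own supplementary table differs and gives EBP as more than 1.5-fold higher with C646. The medians of the members were 0.13, -0.10, -0.08 and 0.17, and without HSD17B7 that of PANC1 at 12 h was -0.19.

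DHCR7 in PANC1 differed between the times of C646. It was 1.89-fold lower than DMSO at 12 h and 1.18-fold lower at 96 h. From 12 to 96 h of C646 it rose by 0.99, and 0.0399% of rows rose by more. The rise was shared, since 8 of 8 members were above 0 over this interval, with a median of 0.47. DHCR7 also rose in DMSO, by 0.31. In ICG-001 DHCR7 moved the other way over the same interval, by -1.13, where 6 of 8 members were below 0 and the median was -0.51. Both drugs of a line and time were set against the same DMSO column, so the 8 comparisons share controls. Of 13554 rows above the limit in all 8 comparisons, 9.85% were above 0 throughout, as HSD17B7 was, and 11.7% were below 0 throughout, as DHCR7 was.

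The drugs were also compared directly, at the same dose and time and without a DMSO column. In PANC1 at 96 h, 7 of 8 members were lower in ICG-001 than in C646, and TM7SF2 was lower by less, at -0.43. The median log2 ratio was -0.93. The lowest ratios were those of DHCR7 (-1.45), SC4MOL (-1.40) and EBP (-1.18), and HSD17B7 stood at 3933 against 7871. In HCT116, SC4MOL, NSDHL, EBP and DHCR7 were lower at 12 h, with ratios of -0.67, -0.77, -0.89 and -0.82. At 96 h SC4MOL (-1.29) and DHCR7 (-0.97) were lower, with EBP at -0.58 and NSDHL at -0.53 just short of 1.5-fold. The medians were -0.50 at both times. In PANC1 at 12 h the median was -0.10, HSD17B7 was lower (-0.76) and DHCR7 was higher in ICG-001 (0.67). Of all HCT116 rows, 2.81% were lower and 3.44% higher in ICG-001 at 12 h, and 3.29% lower and 3.24% higher at 96 h. Of all PANC1 rows, 0.924% were lower and 1.57% higher at 12 h, and 3.46% lower and 3.3% higher at 96 h. Only in PANC1 at 12 h was a member higher.

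**Figure D3:**
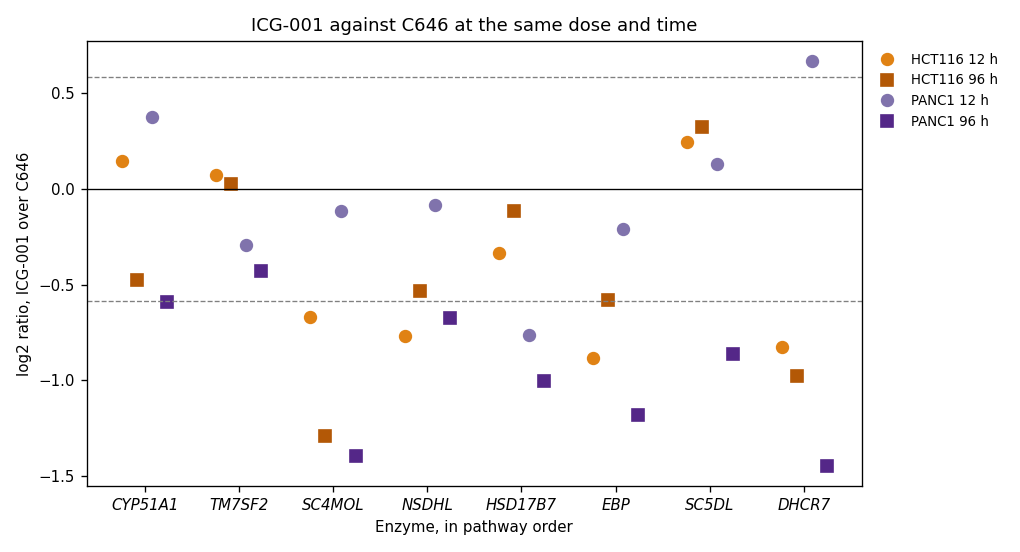
log2 ratio of signal in ICG-001 over C646 for each enzyme, with circles for 12 h and squares for 96 h in each cell line; dashed lines mark 1.5-fold and each point compares 1 column with 1 column. The PANC1 96 h squares lie below 0 for 8 of 8 enzymes, from -1.45 for DHCR7 to -0.43 for TM7SF2, whereas SC5DL lies above 0 in HCT116.

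The DMSO columns of the time points were compared with each other. From 12 to 96 h, 0 of 8 members differed 1.5-fold in HCT116, where 1.55% of rows were lower and 1.55% higher. In PANC1, 1 of 8 was higher, TM7SF2 at 0.88, against 0.979% of rows, and 0 were lower, against 0.332%. The difference was 0.41 (HCT116) and 0.47 (PANC1) for SC4MOL and 0.35 (HCT116) and 0.39 (PANC1) for CYP51A1, less than 1.5-fold. Over the same interval in ICG-001 it was -0.65 (HCT116) and -0.55 (PANC1) for CYP51A1 and -0.26 (HCT116) and -0.57 (PANC1) for SC4MOL. For TM7SF2 the difference was above 0 in all 3 treatments of both lines, from 0.34 (HCT116 in DMSO, short of 1.5-fold) to 0.92. Time, culture density, passage and array error cannot be told apart in these differences.

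The earlier steps, from acetyl-coA to lanosterol, were also lower with ICG-001. Of 11 genes, 9 were lower in HCT116 at 12 h and 9 at 96 h, with medians of -0.83 and -1.24. In PANC1, 2 were lower at 12 h and 8 at 96 h, with medians of -0.29 and -0.80, and 0 were higher in any of these comparisons. Those lower at 96 h in both lines included ACAT2, HMGCS1, IDI1, FDPS, FDFT1, SQLE and LSS. In PANC1 the study's own supplementary table puts HMGCS1, FDPS, FDFT1 and LSS short of 1.5-fold at that time. SQLE, which oxidises squalene, changed by -1.83 in HCT116 and -0.84 in PANC1, and LSS, which closes the ring of lanosterol, by -0.89 and -0.65. Of 14 regulators and uptake genes, 3 of 14 above the limit in HCT116 and 3 of 12 in PANC1 were lower at 96 h and 0 were higher, with medians of -0.10 and -0.11. INSIG1, which holds SCAP in the endoplasmic reticulum, changed by -2.50 and -1.61. SCAP, chosen after its values were seen, changed by 0.58 and 0.22.

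The other late and accessory genes, 12 in number, moved in both directions. At 12 and 96 h of ICG-001, 4 of 10 and 1 of 10 above the limit were lower in HCT116, and 0 of 10 and 2 of 11 in PANC1, where 1 of 11 was higher at 96 h. The medians were -0.31, -0.02, -0.14 and 0.02. LBR, the enzyme that can replace TM7SF2, changed by -0.70 and -0.42 in HCT116 at 12 and 96 h and by -0.14 and -0.41 in PANC1. CYB5B, an outer mitochondrial membrane cytochrome b5, changed by -0.83 and -0.89 and by -0.17 and -0.68. In the same order, CYB5A, the cytochrome b5 of the endoplasmic reticulum that passes electrons to the oxidases, changed by -0.88, 0.12, -0.02 and 1.12. POR, the electron donor of CYP51A1, and CYB5R3, the donor of cytochrome b5, stayed within 1.5-fold in the 4 comparisons, as did PGRMC1, EBPL and HSD17B7P2. C5orf4 was under the limit in all 4, and C14orf1 was above it only in PANC1 at 96 h, at 0.04.

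**Figure D4:**
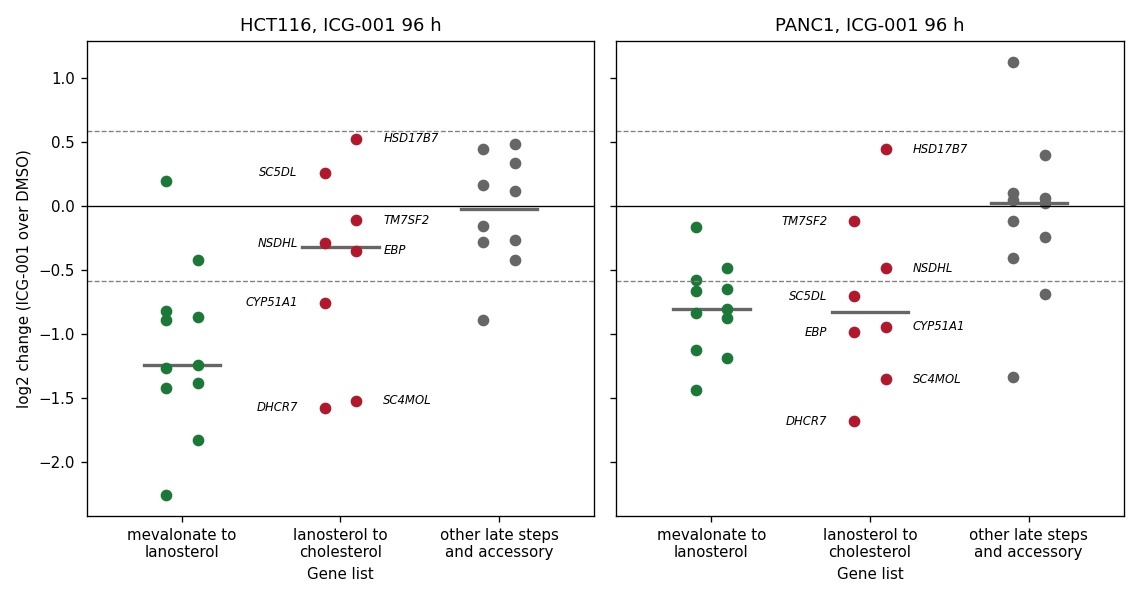
log2 change with ICG-001 at 96 h of the genes above the detection limit in 3 lists (11 genes from mevalonate to lanosterol, the 8 late enzymes, and the other late and accessory genes); each point is a gene, bars are list medians and dashed lines mark 1.5-fold. The bars of the late enzymes lie at -0.32 in HCT116 and -0.82 in PANC1, with HSD17B7 on top at 0.52 and 0.45.

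The patterns of the members over the 12 columns were then set against all rows. Log2 signals were centred within each line, and likeness was the root mean square difference over the 12 columns, among 17193 rows above the limit in at least 1 column of each line. SC5DL spanned less than 1.5-fold in HCT116 and was left out. The 3 rows nearest to SC4MOL included FDFT1 (0.18), the squalene synthase of the same pathway. DHCR7 was most like LOC645313, in RefSeq the stearoyl-coA desaturase pseudogene SCDP1 (0.19), ACAT2 (0.24) and SC4MOL (0.24). The 3 rows nearest to EBP included MRPL52 (0.14) and DDX23 (0.14), and its nearest member was NSDHL (0.18).

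No gene of the pathway was among the 3 nearest rows of the remaining members. CYP51A1 was nearest to RPL23A (0.11), LOC441154 (0.14) and LOC653658 (0.15), which are a ribosomal protein gene and, by RefSeq, ribosomal protein pseudogenes. NSDHL was nearest to HNRNPH2 (0.090), CCDC12 (0.097) and LOC389901 (0.11), and TM7SF2 to LOC388588 (0.18), CTDSP2 (0.20) and MGST2 (0.21). HSD17B7 was nearest to C15orf63 (0.057), now HYPK, to PTPLAD2 (0.074), now HACD4, and to RAXL1 (0.075), now RAX2. With C646 at 96 h in PANC1, C15orf63 changed by 1.48, PTPLAD2 by 1.30 and RAXL1 by 1.36, beside 1.45 for HSD17B7. The nearest member to HSD17B7 was NSDHL at 0.46, in place 3672 of all rows. Within 0.1 of HSD17B7 lay 21 rows, whereas NSDHL had 2 and CYP51A1, TM7SF2, SC4MOL, EBP and DHCR7 had 0. These likenesses are descriptions of rows that were read from the same arrays.

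**Figure D5:**
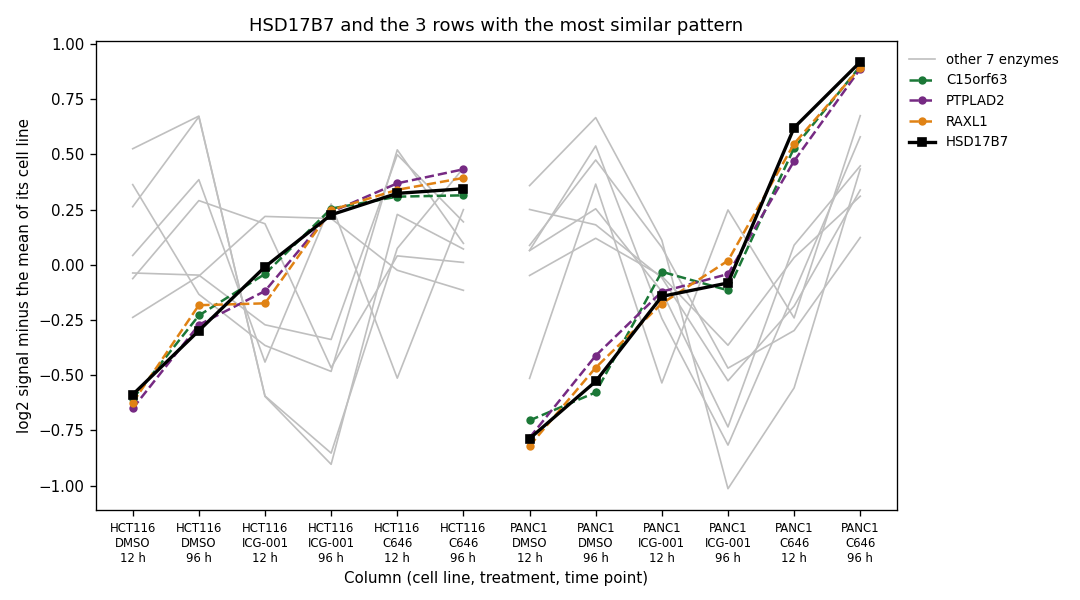
log2 signal minus the mean of its cell line in the 12 columns for HSD17B7 (black squares), its 3 nearest rows (dashed lines) and the other 7 enzymes (grey). The black line rises from DMSO to ICG-001 to C646 in both lines, from -0.59 to 0.34 in HCT116 and from -0.79 to 0.92 in PANC1, together with C15orf63, PTPLAD2 and RAXL1.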

How the data were processed

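The deposited values are linear signal intensity, 1 value per gene name and group. According to the methods, GenomeStudio was used by the authors for quantile normalization, background was not subtracted, and replicate arrays were averaged. The genome build of the array annotation was not given in the sources used here. Groups came from the labels, and each had 1 column, so no test was run and the number of arrays limits the precision.

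Changes are differences of log2 signal between columns. The detection limit was the peak of a column's log2 distribution plus 2.33 SD of the values below the peak, and 44.5% to 47.8% of rows per column lay above it. Rows above the limit in at least 1 column of a comparison were counted at 1.5-fold. All members are named. Of the gene lists, those changed 1.5-fold after 96 h of ICG-001 in both lines and the whole list of other late genes are named, but some of them are not reported here. The members and lists were chosen with earlier results of these data known. The procedure was tested on simulated data. Alternatives were folds of 1.2 and 2, a limit at 5 SD, no filter, normexp correction (limma 3.58.1, R 4.3.3) with an offset of 16, median centring, quantile normalization over 12 columns, HSD17B7 left out and, added after seeing the data, DMSO 12 h as the control of the 96 h columns. Scripts ran in Python 3.11.15 (matplotlib 3.10.9, scipy 1.17.1, pandas 2.3.3, numpy 2.4.6). Start regions came from RefSeq tables of GRCh38.p14.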

Additional observations from a re-analysis of the deposited data

Results flagged for a closer look

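SC5DL stood out because both ICG-001 columns lay above DMSO in HCT116 and below DMSO in PANC1. The mean log2 change of HCT116 minus that of PANC1 was 0.87, and 1407 of 14141 rows (9.95%) had such opposite directions with ICG-001. TM7SF2 stood out in the same way with C646, below DMSO in HCT116 and above it in PANC1, with a difference of -0.64, as did 1416 of 14036 rows (10.1%). Neither difference was tested, because each group had 1 column.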

How the results depend on the processing

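No paired analysis was possible because each group has 1 column, and replicates could not be left out because single arrays were not used. The count of members lower with ICG-001 became 1 in HCT116 at 12 h and 2 in PANC1 at 96 h at 2-fold, and 5 in HCT116 at 96 h and 2 in PANC1 at 12 h at 1.2-fold. With normexp correction the medians were -0.43 for ICG-001 in HCT116 at 12 h, -0.94 in PANC1 at 96 h and -0.59 for ICG-001 over C646 in HCT116 at 96 h. Without HSD17B7 they were -0.48 in HCT116 and -0.19 in PANC1 at 12 h of ICG-001, -0.94 in PANC1 at 96 h, -0.19 in PANC1 at 12 h of C646 and -0.67 for ICG-001 over C646 in HCT116 at 12 h. With quantile normalization over 12 columns the median for ICG-001 over C646 in PANC1 at 96 h was -1.01. With DMSO 12 h as the control of the 96 h columns, chosen after seeing the data, the medians were -0.67 for ICG-001 in PANC1, 0.15 for C646 in HCT116 and 0.37 for C646 in PANC1, and 9 of 32 member changes turned sign, none of them above 0.35 in size, while 3 fell short of 1.5-fold and 5 newly reached it. The cause of these shifts was not tested, apart from the fold required and the member left out. Of 64 member changes against DMSO, 0 changed sign under normexp, centring or the 12-column normalization, and normexp brought 2 more past 1.5-fold. Values under the limit varied between columns with an SD of 0.061 to 0.073 in log2, and the spread between arrays is unknown.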
